A study of Mus musculus with 14 samples.

Results

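The simple epithelial keratins Krt7, Krt8, Krt18, Krt19, Krt20 and Krt23 and the intermediate filament gene Vim were described in mouse kidney. These 7 genes were chosen by symbol, with earlier results of these data known, out of 21878 genes listed for every mouse. All 7 were among the 14912 genes that passed the filter on low values (3 or more mice at or above 0.1 FPKM). FPKM, fragments per kilobase of transcript scaled to the number of mapped fragments, is a level per transcript length, so levels could be set side by side between genes. Kidney RNA was sequenced from 14 male C57BL/6J mice in 4 groups. The 4 Cfb-/- diabetic and 4 WT diabetic mice ate a high-fat diet with 60% of calories from fat and were injected with streptozotocin (STZ), a toxin of the insulin-producing beta cells, at 60 mg/kg on 5 consecutive days. The 3 Cfb-/- control and 3 WT control mice ate chow with 10% of calories from fat and were injected with citrate buffer. Diet and STZ changed together, so their parts in the differences called diabetes below cannot be told apart. Mice were 8 weeks old at the start, and the high-fat diet was fed for 4 weeks before STZ. All mice were killed 21 weeks after the injections. Every sample carries the same time point, 34 weeks. Read as age at killing, it is close to what these steps add up to. Cfb, complement factor B of the alternative pathway, was deleted in the whole animal, so every cell type of the Cfb-/- kidney lacked it.

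Keratins form filaments from pairs of a type I and a type II chain, and neither chain builds a filament alone. Krt7 and Krt8 are type II chains, and Krt18, Krt19, Krt20 and Krt23 are type I chains; Krt8 with Krt18 is the basic pair of simple epithelia, including kidney tubules. Krt7 and Krt19 are typical of ducts and collecting ducts, and Krt20 is best known from gut epithelium and the surface cells of the urothelium, the lining of the renal pelvis and bladder. Vimentin is a type III filament of fibroblasts, endothelium, leukocytes and podocytes, and is also made by tubule cells after injury.

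On GRCm38.p6, the build named in the submitters' processing notes, the type II genes Krt7 (chr15:101412403-101427806) and Krt8 (chr15:101996711-102004342) lie on the same chromosome as Krt18 (chr15:102028216-102032026), which starts 23.9 kb from the start of Krt8 and is read in the opposite direction. The other type I genes lie on chromosome 11, with Krt20 (chr11:99428385-99438153), Krt23 (chr11:99477973-99493120) and Krt19 (chr11:100140810-100145926) in that order. Vim lies on chromosome 2 (chr2:13574311-13582826). RefSeq promoter windows of the same build were given for 6 of the 7 genes, and Krt19 was the gene without a window. The 250 bases upstream of the start are shown for Krt8 and Krt18, the partner genes whose levels moved unequally, and for Krt20, whose mean FPKM differed between diabetic and control mice by the largest ratio among the 7. Each is written 5′ to 3′ on the strand of its gene, and capitals mark a TATA box (TATAAA, searched on both strands).
Krt8, chr15:102004343-102004592, minus strand: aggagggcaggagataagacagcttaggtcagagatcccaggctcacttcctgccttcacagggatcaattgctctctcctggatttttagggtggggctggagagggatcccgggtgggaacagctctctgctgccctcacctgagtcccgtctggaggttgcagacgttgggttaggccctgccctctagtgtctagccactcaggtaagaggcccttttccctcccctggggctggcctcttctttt
Krt18, chr15:102027966-102028215, plus strand: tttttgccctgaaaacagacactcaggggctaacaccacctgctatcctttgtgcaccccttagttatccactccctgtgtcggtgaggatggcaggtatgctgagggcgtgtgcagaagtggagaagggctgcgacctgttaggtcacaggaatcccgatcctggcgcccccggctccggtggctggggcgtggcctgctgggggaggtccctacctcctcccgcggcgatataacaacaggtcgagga
Krt20, chr11:99438154-99438403, minus strand: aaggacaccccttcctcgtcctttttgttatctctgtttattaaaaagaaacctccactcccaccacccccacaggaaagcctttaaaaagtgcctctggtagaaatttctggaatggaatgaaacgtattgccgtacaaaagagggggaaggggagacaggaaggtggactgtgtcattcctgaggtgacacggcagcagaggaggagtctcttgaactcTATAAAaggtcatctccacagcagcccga
Krt20 and Vim held a TATA box, starting 29 and 32 bases before the start, and 12.4% of the 32851 RefSeq windows of this length held one. Krt7 held 4 GC boxes (GGGCGG, both strands), a motif found in 32.7% of all windows, and none of the other 5 held one. The AP-1 motif (TGANTCA, both strands), found in 6.75% of all windows, was in none of the 6. These are matches of letters within 250 bases and no more than that.

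The deleted gene was checked first. Cfb was at 56.7 to 131 FPKM in the 7 WT mice and at 1.13 to 2.22 FPKM in the 7 Cfb-/- mice, and was the 1 gene of 14912 that passed the test for the deletion in control mice and in diabetic mice alike. The proximal tubule list fell with diabetes in both genotypes, with 8 of 10 genes lower in WT and 9 of 10 in Cfb-/- mice. Of all 14912 tested genes, 1487 passed as lower in WT and 955 in Cfb-/- mice. The summed FPKM of the 10 proximal tubule genes was 44690 to 72921 in controls and 8286 to 18710 in diabetic mice. The median of all tested genes was higher in diabetic mice by 0.29 (WT) and 0.22 (Cfb-/-) on the log2 scale, and by 0.03 and -0.01 after median-ratio scaling, so each log2 difference below is to be read against those medians. Of the genes that passed the test in WT mice, 78.4% were higher in diabetic mice as deposited, 50.3% after median-ratio scaling and 44.2% after quantile normalization, and in Cfb-/- mice the shares were 81%, 56.8% and 49.1%. Markers of urothelium were used to split off 5 mice at a sum of 25 FPKM, a cut chosen after seeing the data. The gap at the cut was small, from 21.1 to 27.96 FPKM. The summed FPKM of 12 urothelial genes (Upk1a, Upk1b, Upk2, Upk3a, Psca, Krt5 and others) was 27.96 to 108 in WT diabetic mice 2, 3 and 4 and Cfb-/- control mice 1 and 3, and 2.99 to 21.1 in the other 9 mice.

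Of the 7 genes, 6 were higher in diabetic than in control kidneys in each genotype, in this order of fitted difference in WT mice: Krt19, Krt20, Krt18, Vim, Krt7 and Krt8. The order of the first 2 depended on the 0.1 added to each FPKM. With 0.01 added, Krt20 (6.22) came before Krt19 (5.59). In Cfb-/- mice Krt20 (4.14) was also before Krt19 (2.20). Krt23 did not pass the test in either genotype. Differences are given as log2 of FPKM plus 0.1 with the standard error (SE), from limma with Benjamini-Hochberg adjustment over 14912 genes, and a gene is said to pass at an adjusted p under 0.05. In WT mice 6 of 7 passed as higher, against 36.2% of all tested genes, and the median of the 7 was 1.32. In Cfb-/- mice 6 of 7 passed as higher, against 27.4% of all tested genes, and their median was 1.52. The criteria of the study were applied here to the p and fold from limma, whereas the paper used DESeq2. By these criteria (unadjusted p under 0.05 and more than 2-fold), 6 of 7 were higher in WT (15.6% of all genes) and 5 of 7 in Cfb-/- mice (13.3%). The 6 in WT included Krt23 (2.003-fold) and not Krt8 (1.39-fold), and the 5 in Cfb-/- mice lacked Krt8 (1.85-fold) and Krt23. The lowest diabetic mouse was above the highest control mouse for 6 of 7 genes in WT (35.5% of all genes) and in Cfb-/- mice (33.6%). Both comparisons came from 1 fit with its shared estimate of spread. Because bulk kidney tissue was sequenced, more cells of a type and more RNA per cell cannot be told apart.

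Without the 5 mice with high urothelial markers, a choice made after seeing the data, 2 of 7 genes passed in WT and 3 of 7 in Cfb-/- mice, while all genes that passed, in either direction, went from 6879 to 1832 in WT and from 5038 to 2394 in Cfb-/- mice. This left 1 WT diabetic and 1 Cfb-/- control mouse, each assumed to vary like the other groups. Krt19 (4.15) and Krt20 (4.78) still passed in WT mice, and Krt19 (3.74), Krt20 (4.01) and Vim (1.56) in Cfb-/- mice. Krt18 (1.83 in WT, 1.66 in Cfb-/-), Krt7 (0.98 and 1.03) and Krt8 (0.26 and 0.94) remained on the same side without passing, as did Vim in WT mice (1.38).

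**Figure D1:**
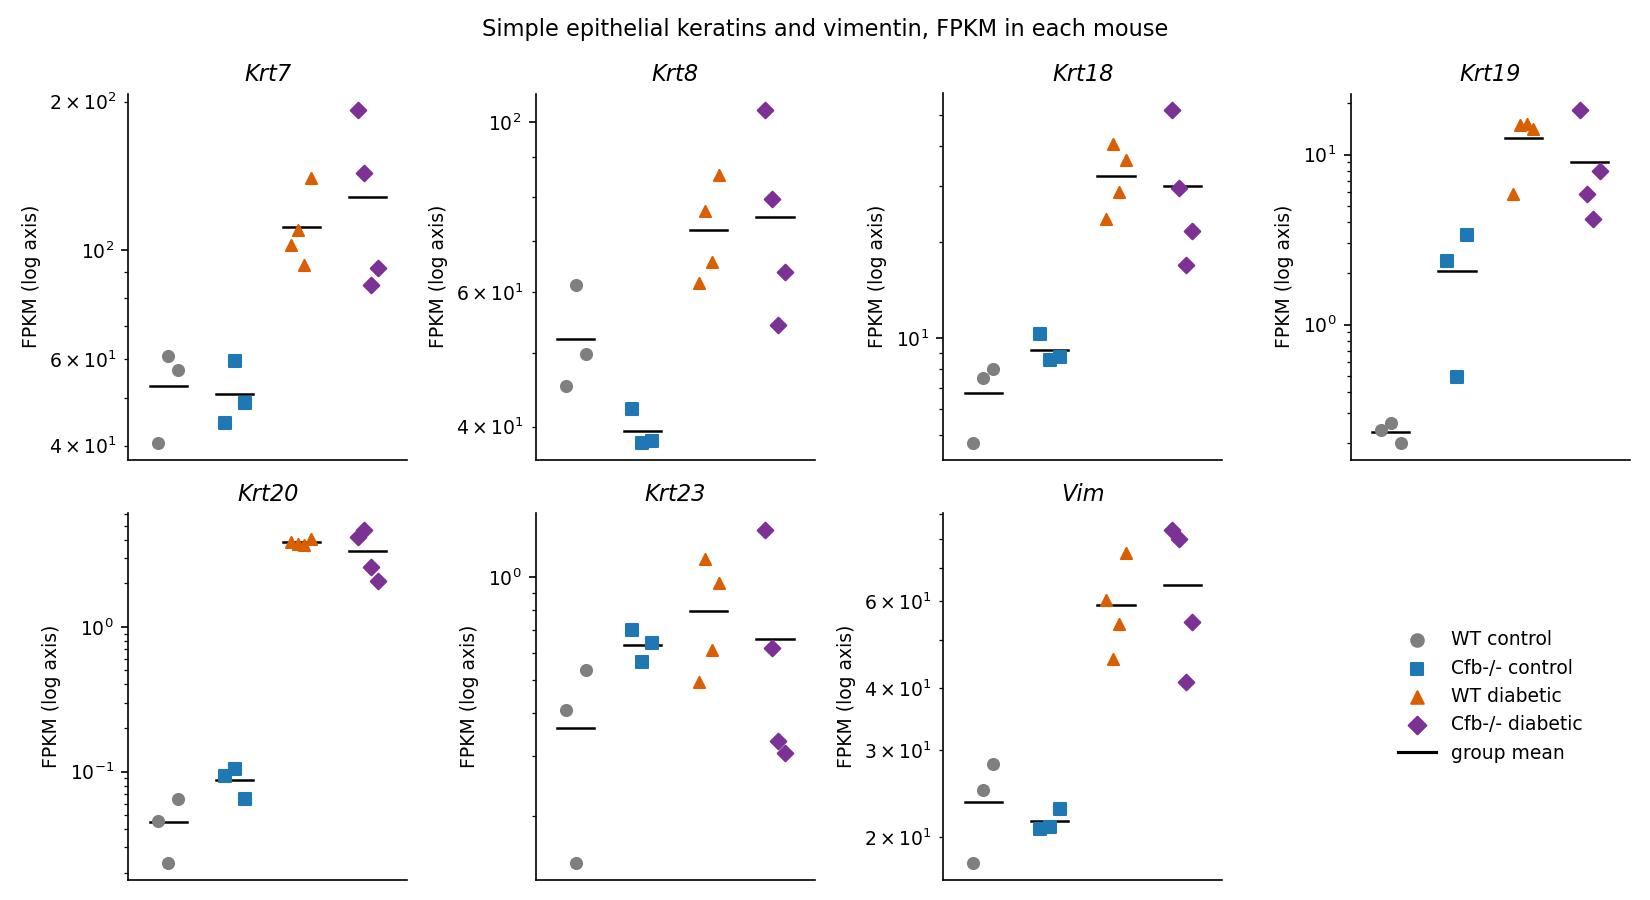
FPKM of each gene in each mouse on a log axis, with the 4 groups side by side from left to right as in the key and a line at the group mean. Diabetic mice lay above the controls of their genotype for Krt7, Krt8, Krt18, Krt19, Krt20 and Vim, and overlapped them for Krt23.

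Krt7 was the most abundant keratin by group mean in all 4 groups. Krt7 was at 40.4, 60.9 and 57.0 FPKM in the WT control mice and at 102, 110, 93.2 and 140 FPKM in the WT diabetic mice. Krt7 in Cfb-/- mice was at 44.4, 59.4 and 48.8 FPKM in controls and at 192, 143, 84.9 and 92.0 FPKM in diabetic mice. The 2 ranges did not overlap in either genotype, and the Cfb-/- diabetic mice were the most spread. Krt7 was higher in diabetic mice by 1.08 (SE 0.25, adjusted p = 0.00317) in WT and by 1.26 (SE 0.25, adjusted p = 0.00136) in Cfb-/- mice, 2.11-fold and 2.40-fold.

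Krt8, its fellow type II chain and the partner of Krt18, differed least among the 6. Krt8 was at 45.2, 61.2 and 49.8 FPKM in WT controls and at 61.7, 76.5, 65.8 and 85.4 FPKM in WT diabetic mice. Krt8 in Cfb-/- mice was at 42.2, 38.0 and 38.3 FPKM in controls and at 104, 79.4, 54.3 and 63.8 FPKM in diabetic mice. The lowest WT diabetic mouse stood only just above the highest WT control. In WT mice Krt8 was higher by 0.47 (SE 0.19, adjusted p = 0.0490), where the median of all genes was 0.29, and the call was lost after median-ratio scaling (0.19, adjusted p = 0.422), with a pseudocount of 1, with no filter and without WT diabetic mouse 2, 3 or 4 or WT control mouse 1 or 3, with adjusted p between 0.0517 and 0.145 in these other settings. In Cfb-/- mice Krt8 rose by 0.89 (SE 0.19, adjusted p = 0.00209) and kept its call after median-ratio scaling (0.64, adjusted p = 0.0172).

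Krt18, the type I partner of Krt8, rose several-fold. Krt18 was at 4.70, 7.54 and 8.05 FPKM in WT controls and at 23.7, 40.6, 28.7 and 36.04 FPKM in WT diabetic mice. Krt18 in Cfb-/- mice was at 10.3, 8.58 and 8.78 FPKM in controls and at 51.8, 29.6, 17.0 and 21.6 FPKM in diabetic mice. Every diabetic mouse stood above every control mouse of both genotypes. Krt18 rose by 2.25 (SE 0.31, adjusted p = 7.65e-05) in WT and by 1.56 (SE 0.31, adjusted p = 0.0013) in Cfb-/- mice, 4.74-fold and 2.96-fold.

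Krt19, a type I keratin of ducts and urothelium, was close to absent in WT controls. Krt19 was at 0.242, 0.264 and 0.200 FPKM in WT controls and at 5.84, 14.98, 15.1 and 14.1 FPKM in WT diabetic mice. Krt19 in Cfb-/- mice was at 2.35, 0.491 and 3.35 FPKM in controls and at 18.2, 5.89, 4.20 and 8.04 FPKM in diabetic mice. WT diabetic mouse 1 was well below the other 3 of its group, and Cfb-/- control mouse 2 was well below the other 2 of its group. Krt19 rose by 5.14 (SE 0.56, adjusted p = 1.52e-05) in WT and by 2.20 (SE 0.56, adjusted p = 0.00716) in Cfb-/- mice. The WT difference was 3.37 with a pseudocount of 1 and 5.59 with a pseudocount of 0.01. The Cfb-/- difference was 1.44 (adjusted p = 0.0432) without Cfb-/- control mouse 2, and at most 2.71 when another mouse was left out.

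The mice with the higher Krt19 within WT diabetic and Cfb-/- control mice were those with high urothelial markers. The summed urothelial FPKM was 11.2, 108, 92.4 and 35.5 in WT diabetic mice 1 to 4 and 27.96, 4.44 and 29.6 in Cfb-/- control mice 1 to 3. In WT controls it was 2.99 to 3.92, and in Cfb-/- diabetic mice it was 11.4 to 21.1. All 12 urothelial genes passed as higher in WT diabetic mice (median 3.42), and 1 of 12 in Cfb-/- diabetic mice (median -0.50). Upk2, 1 of the 12 genes and a uroplakin that defines the surface urothelial cell, was at 0 in WT diabetic mouse 1. It was at 0 to 0.136 FPKM in the Cfb-/- diabetic mice, in which Krt19 was at 4.20 to 18.2 FPKM. The sum over all 12 was nevertheless 11.2 to 21.1 FPKM in WT diabetic mouse 1 and the Cfb-/- diabetic mice, against 2.99 to 3.92 FPKM in WT controls. In the mice left after leaving out the 5 with high urothelial markers the Krt19 difference was 4.15 in WT and 3.74 in Cfb-/- mice. These values rest on 1 WT diabetic and 1 Cfb-/- control mouse, each the lowest in Krt19 of its group. The part of urothelium in the levels of Krt19 in the 5 mice was not tested.

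Krt20 was near 0 in all 6 controls and above 2 FPKM in all 8 diabetic mice. Krt20 was at 0.0454, 0.0233 and 0.0647 FPKM in WT controls and at 3.85, 3.73, 3.68 and 4.08 FPKM in WT diabetic mice. Krt20 in Cfb-/- mice was at 0.0935, 0.105 and 0.0650 FPKM in controls and at 4.15, 4.69, 2.58 and 2.07 FPKM in diabetic mice. The 4 WT diabetic mice had a mean of 3.84 FPKM with an SD of 0.179 FPKM. Krt20 rose by 4.78 (SE 0.24, adjusted p = 2.5e-08) in WT and by 4.14 (SE 0.24, adjusted p = 1.28e-07) in Cfb-/- mice. These differences depend on the 0.1 added to each FPKM, since the control levels were mostly below it, and ranged from 2.21 to 6.22 in WT mice over all settings tried. The means in FPKM were 86.3-fold apart in WT and 38.5-fold apart in Cfb-/- mice.

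Krt20 was high in WT diabetic mouse 1 (3.85 FPKM), where the urothelial sum was 11.2 FPKM (2.99 to 3.92 in WT controls) with Upk2 and Upk3a listed at 0, and likewise in the 3 WT diabetic mice with high urothelial markers (3.68 to 4.08 FPKM). In Cfb-/- control mice 1 and 3, where the urothelial sum was 27.96 and 29.6, Krt20 stayed at 0.0935 and 0.0650 FPKM. The sum over 12 injured tubule markers was 376 to 505 FPKM in controls and 1658 to 3157 FPKM in diabetic mice, and none of the 12 was at 0 in every mouse of a group. Sums of other lists also separated controls from diabetic mice, such as macrophage markers (58.65 to 93.7 and 235 to 430 FPKM) and fibroblast and mural cell markers (62.5 to 90.6 and 142 to 234 FPKM). The part of urothelial and of injured tubule cells in the level of Krt20 was not tested.

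**Figure D2:**
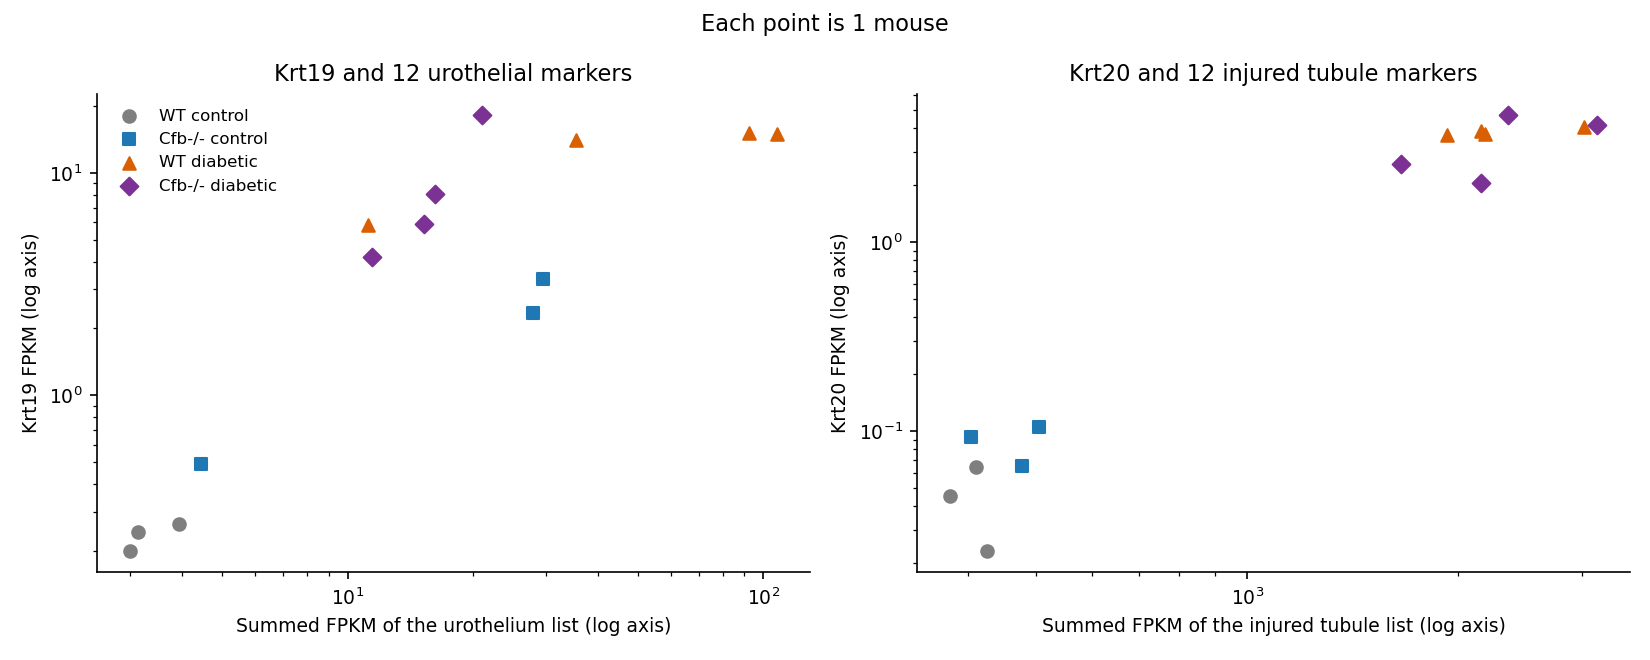
Left, Krt19 FPKM against the summed FPKM of 12 urothelial markers; right, Krt20 FPKM against the summed FPKM of 12 injured tubule markers; both axes are log axes, and each point is 1 mouse with its group given by shape and colour. Cfb-/- control mice 1 and 3 stand above mouse 2 in both measures at the left, while at the right the 6 control mice (Krt20 at 0.0233 to 0.105 FPKM) and the 8 diabetic mice (2.07 to 4.69 FPKM) form separate clouds.

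Krt23, a type I keratin, was at low levels here. Krt23 was at 0.408, 0.146 and 0.534 FPKM in WT controls and at 0.493, 1.13, 0.611 and 0.957 FPKM in WT diabetic mice. Krt23 in Cfb-/- mice was at 0.699, 0.562 and 0.641 FPKM in controls and at 1.37, 0.620, 0.332 and 0.307 FPKM in diabetic mice. The groups overlapped in both genotypes. The difference was 1.002 (SE 0.43, adjusted p = 0.0666) in WT and -0.16 (SE 0.43, adjusted p = 0.804) in Cfb-/- mice. Without WT control mouse 3 the WT difference was 1.28 with adjusted p = 0.0453, and without WT control mouse 2 it was 0.60 with adjusted p = 0.322. It was 0.25 (adjusted p = 0.63) under quantile normalization and 0.47 without the 5 mice with high urothelial markers.

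Vim was at 17.8, 24.96 and 28.2 FPKM in WT controls and at 60.4, 45.9, 54.1 and 75.0 FPKM in WT diabetic mice. Vim in Cfb-/- mice was at 20.8, 21.04 and 22.9 FPKM in controls and at 83.6, 80.1, 41.1 and 54.4 FPKM in diabetic mice. The groups did not overlap in either genotype. Vim rose by 1.32 (SE 0.23, adjusted p = 0.000507) in WT and by 1.52 (SE 0.23, adjusted p = 0.000194) in Cfb-/- mice, 2.49-fold and 2.88-fold. Lists of cells known to make vimentin also rose: fibroblast and mural cell markers summed to 62.5 to 90.6 FPKM in controls and 142 to 234 FPKM in diabetic mice, macrophage markers to 58.65 to 93.7 and 235 to 430 FPKM, and endothelial markers to 106 to 166 and 178 to 223 FPKM. Their part in the level of Vim was not tested.

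Single comparisons were also made by exact two-sided permutation of the mice, whose smallest p was 0.0286 for 4 mice against 3. In WT mice p was 0.0286 for Krt7, Krt18, Krt19, Krt20 and Vim, 0.0571 for Krt8 and 0.0857 for Krt23 (exact permutation). In Cfb-/- mice p was 0.0286 for Krt7, Krt19, Krt20 and Vim, 0.0571 for Krt8 and Krt18 and 0.943 for Krt23 (exact permutation).

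The deletion of Cfb was compared within control mice and within diabetic mice, and neither set apart any of the 7 genes in the limma test. In control mice 0 of 7 passed, against 0.00671% of all genes (the 1 gene was Cfb), and 1 of 7, Krt19, had an unadjusted p under 0.05, as did 17.5% of all genes. Krt19 also met the criteria of the study, which 1.17% of all genes did. Krt19 was higher in Cfb-/- controls by 2.36 (SE 0.60, unadjusted p = 0.00138, adjusted p = 0.235), with mice 1 and 3, which carried the urothelial markers, the highest. Its difference was 0.82 when those mice and the 3 WT diabetic mice were left out, which kept Cfb-/- control mouse 2 alone in its group. It passed when Cfb-/- control mouse 2 (adjusted p = 0.0459, where 11 of all genes passed) or WT control mouse 1 (adjusted p = 0.0440, where 1711 of all genes, 11.5%, passed) was left out. For 5 of 7 genes the ranges did not overlap between the control genotypes (13.8% of all genes in either direction): Krt8 was lower in Cfb-/- controls, and Krt18, Krt19, Krt20 and Krt23 were higher. With 3 mice against 3 the exact permutation test cannot go below 0.1, which was its p for each of these 5.

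In diabetic mice 0 of 7 passed for the deletion (again 0.00671% of all genes), 0 of 7 had an unadjusted p under 0.05 (3% of all genes), 0 of 7 met the criteria of the study (0.476% of all genes), and the ranges overlapped for all 7 (2.75% of all genes did not overlap). The differences, Cfb-/- against WT, were 0.14 for Krt7 (95% interval -0.35 to 0.63), 0.03 for Krt8 (-0.34 to 0.39), -0.20 for Krt18 (-0.81 to 0.40) and 0.10 for Vim (-0.36 to 0.56). They were -0.58 for Krt19 (95% interval -1.69 to 0.52), -0.25 for Krt20 (-0.73 to 0.23) and -0.39 for Krt23 (-1.23 to 0.45). The interaction of genotype with diabetes passed for 0 of 7 genes, where the share of all genes was 0%, and at an unadjusted p under 0.05 for 1 of 7, Krt19 (-2.94, SE 0.79, unadjusted p = 0.00217, adjusted p = 0.73), as 5.77% of all genes did. Without the 5 mice with high urothelial markers, which left 1 WT diabetic and 1 Cfb-/- control mouse, the Krt19 interaction was -0.42. These tests do not show that the genotypes were alike.

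**Figure D3:**
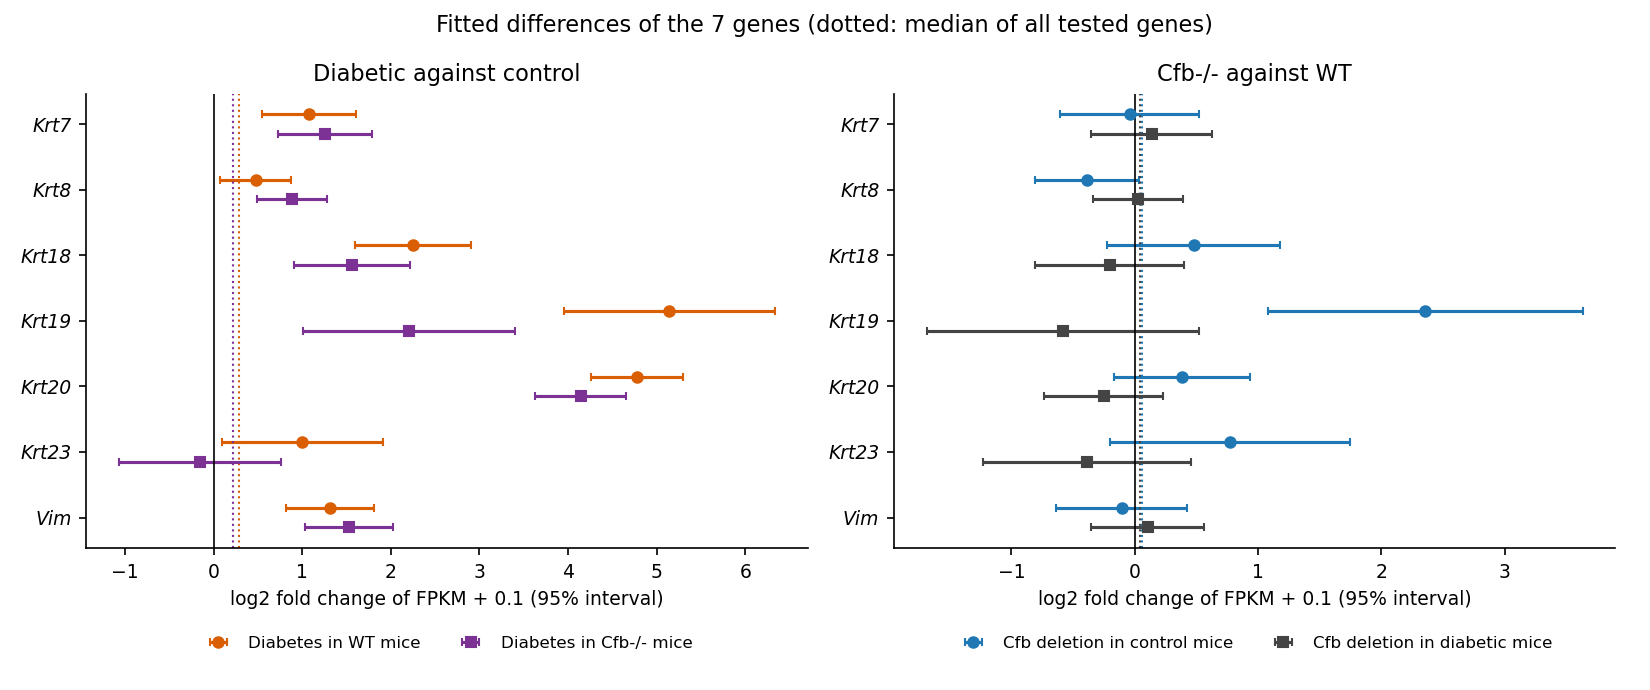
Fitted log2 fold changes of FPKM plus 0.1 with 95% intervals for the 7 genes, diabetic against control at the left and Cfb-/- against WT at the right, with a dotted line at the median of all tested genes. Intervals for diabetes lie above 0 for all genes but Krt23 in Cfb-/- mice, whose interval runs from -1.07 to 0.76, and intervals for the deletion include 0 except for Krt19 in control mice, which starts at 1.08.

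The 2 chains of the basic pair did not move in step. Krt8 was 9.62, 8.12 and 6.19 times as high as Krt18 in FPKM in the WT control mice, and 4.08, 4.43 and 4.36 times as high in the Cfb-/- controls. The ratio was 2.60, 1.88, 2.29 and 2.37 in WT diabetic mice and 2.01, 2.68, 3.19 and 2.95 in Cfb-/- diabetic mice. Every diabetic mouse was below every control mouse, and the control genotypes did not overlap. The log2 ratio of Krt8 to Krt18 was lower in diabetic mice by a difference of -1.23 as the mean of both genotypes (-1.77 in WT and -0.68 in Cfb-/- mice; exact two-sided permutation within genotype, p = 0.000816, the smallest of 1225 assignments). Between the control genotypes it differed by -0.86 (exact permutation p = 0.1, the smallest for 3 against 3) and between the diabetic genotypes by 0.23 (exact permutation p = 0.257). Whether the difference with diabetes itself differed between genotypes was not tested.

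Of the summed FPKM of the 6 keratins, which was 91.0 to 130 in controls and 163 to 372 in diabetic mice, Krt8 and Krt18 together made up 52.6% ± 2.43 (SD, n = 3) in WT controls, 47.7% ± 4.52 (SD, n = 3) in Cfb-/- controls, 44.9% ± 2.05 (SD, n = 4) in WT diabetic and 43.1% ± 1.85 (SD, n = 4) in Cfb-/- diabetic mice. The share differed by -6.14 percentage points between diabetic and control mice as the mean of both genotypes (exact two-sided permutation within genotype, p = 0.00245). The difference was -7.67 in WT and -4.61 in Cfb-/- mice. In Cfb-/- mice the groups overlapped (43.5% to 52.5% in controls and 41.4% to 45.5% in diabetic mice), and in WT mice they did not. Krt8 alone went from 46.6% ± 3.33 (SD, n = 3) in WT controls to 31.1% ± 0.533 (SD, n = 4) in WT diabetic mice. Krt7 held 44.4% to 55.4% in every mouse. Krt18 went from 5.97% ± 0.910 (SD, n = 3) to 13.8% ± 1.94 (SD, n = 4) in WT mice. In WT mice Krt19 went from 0.214% ± 0.0472 (SD, n = 3) to 5.34% ± 1.84 (SD, n = 4), and Krt20 from 0.0412% ± 0.0205 (SD, n = 3) to 1.67% ± 0.229 (SD, n = 4). In Cfb-/- mice the Krt19 share was 2.05% ± 1.47 (SD, n = 3) in controls and 3.50% ± 1.30 (SD, n = 4) in diabetic mice, and the groups overlapped (0.458% to 3.35% and 2.24% to 4.91%).

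**Figure D4:**
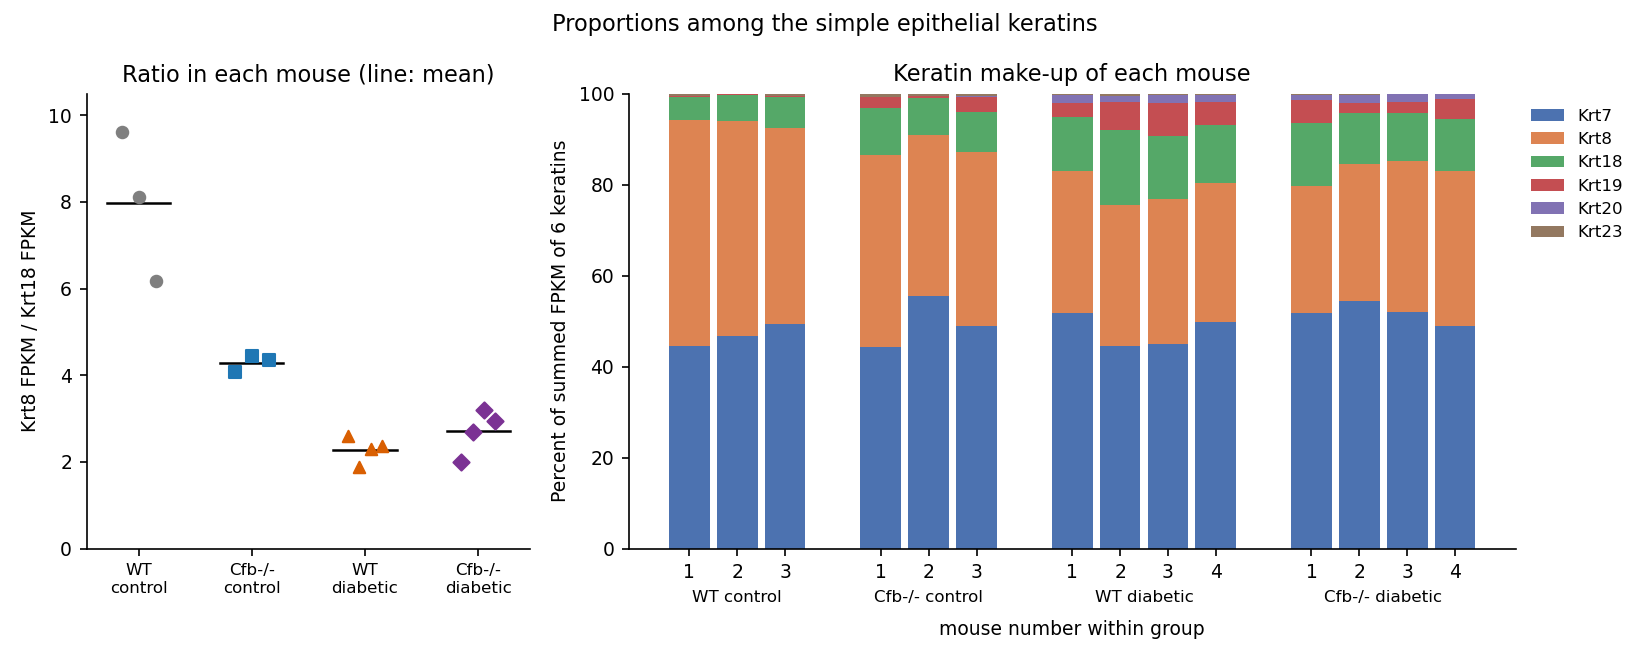
Left, Krt8 FPKM divided by Krt18 FPKM in each mouse with a line at the group mean; right, the percentage of the summed FPKM of 6 keratins taken by each keratin, 1 bar per mouse. The ratio is 6.19 to 9.62 in WT controls and 1.88 to 3.19 in the diabetic mice, and the bars of diabetic mice show narrower Krt8 and wider Krt18 and Krt20 parts, while the Krt19 parts of the Cfb-/- groups overlap.

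In order of mean FPKM the genes ran Krt7, Krt8, Vim and Krt18 in every group. In WT controls Krt7 and Krt8 could not be ordered, with Krt7 above Krt8 in 1 of 3 mice (mean log2 difference 0.01, SD 0.18), whereas Krt7 was above Krt8 in all 8 diabetic mice and in the 3 Cfb-/- controls. Krt8 was above Vim in 13 of 14 mice. Below Krt18 came Krt19, Krt20 and Krt23 in both diabetic groups, in that order in each of the 8 mice. In WT controls Krt23 came before Krt19 in 2 of 3 mice and Krt20 was lowest in all 3. In Cfb-/- controls Krt19 was above Krt23 in 2 of 3 mice and Krt20 was again the lowest.

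Of the other 47 keratin symbols, 8 passed the filter. The counts of this and the following lists stand beside the 36.2% (WT) and 27.4% (Cfb-/-) of all tested genes that passed as higher. As lower, 1487 of all 14912 tested genes passed in WT and 955 in Cfb-/- mice. In WT mice 4 of the 8 passed as higher and 1 as lower in diabetic mice, and in Cfb-/- mice 1 passed as higher and 1 as lower. Krt80, a type II keratin, rose by 0.70 (SE 0.20, adjusted p = 0.0121) in WT and by 0.96 (SE 0.20, adjusted p = 0.00213) in Cfb-/- mice. Krt10, a type I keratin of differentiated epidermis, was lower by a difference of -1.26 (SE 0.18, adjusted p = 9.32e-05) in WT and -0.88 (SE 0.18, adjusted p = 0.00153) in Cfb-/- mice, at 1.73 to 2.16 FPKM in WT controls and 0.652 to 0.914 FPKM in WT diabetic mice. Krt15, a basal cell keratin, rose in WT mice (3.49, SE 1.06, adjusted p = 0.0162) and differed by -0.96 (SE 1.06, adjusted p = 0.512) in Cfb-/- mice. Its 3 highest WT diabetic values, 2.48, 4.80 and 2.92 FPKM, were in the mice with high urothelial markers, and mouse 1 was at 0.0307 FPKM.

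Of 15 other intermediate filament genes, 12 passed the filter, and 8 of these rose and 1 fell in WT diabetic mice (median 1.002), while 9 rose and 0 fell in Cfb-/- diabetic mice (median 0.91). Nes, which codes for nestin of podocytes and endothelium, rose by 1.14 (SE 0.23, adjusted p = 0.00141) in WT and 1.55 (SE 0.23, adjusted p = 0.000173) in Cfb-/- mice. Des, which codes for desmin of muscle and mural cells, rose by 0.61 (SE 0.22, adjusted p = 0.0336) and 1.08 (SE 0.22, adjusted p = 0.00165), and Lmnb1, a lamin of the nuclear envelope, by 0.99 and 0.95. Of 15 tested genes for filament linkers and desmosomes, the junctions to which keratins anchor, 9 rose in WT (median 0.63) and 6 in Cfb-/- diabetic mice (median 0.37) and none fell in limma. Dsg2, a desmosomal cadherin, rose by 2.12 and 1.47, Dsp, desmoplakin, by 1.56 and 0.85, and Plec, plectin, by 1.09 and 1.07. Ppl, periplakin, rose by 2.56 (adjusted p = 4.79e-05) in WT mice, with 0.87 (adjusted p = 0.0517) in Cfb-/- mice.

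All 12 injured tubule markers rose in both genotypes (median 2.34 in WT, 2.50 in Cfb-/- mice). Havcr1, the kidney injury molecule, went from a mean of 0.400 to 20.97 FPKM in WT mice and Lcn2, lipocalin 2, from 0.880 to 62.3 FPKM. Of 15 epithelial and mesenchymal programme genes, 13 rose in WT and 10 in Cfb-/- diabetic mice and none fell. They included the epithelial Epcam (1.49 in WT, 0.74 in Cfb-/- mice), and the mesenchymal Fn1, fibronectin (2.95 and 2.76), and S100a4 (1.47 and 1.99), so genes of both kinds rose. Esrp1, an epithelial splicing factor, rose by 1.45 in WT and differed by 0.70 (adjusted p = 0.0801) in Cfb-/- mice.

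Other lists of cell types that make these filaments gave the following counts, against 36.2% of all tested genes in WT and 27.4% in Cfb-/- mice. Of 10 collecting duct and connecting tubule genes, 3 rose in WT (Aqp2, Tfcp2l1 and Avpr2) and 1 in Cfb-/- diabetic mice, with medians of 0.54 and 0.38. Of 10 thick and thin limb genes 6 rose in WT and 4 in Cfb-/- mice, of 8 podocyte and parietal genes 5 and 7, of 8 endothelial genes 6 and 6, of 10 fibroblast and mural genes 10 and 9, of 10 macrophage genes 10 and 9, and of 8 lymphocyte genes 5 and 4, and none fell. Of 7 tested adipocyte genes 6 rose and 1 fell in WT, and 1 rose and 1 fell in Cfb-/- mice. In each list 0 genes passed for the deletion in control mice, for the deletion in diabetic mice or for the interaction. The part of these cell types in the levels of the keratins and Vim was not tested.

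The 3 genes with the most similar profile to each gene were taken from 11390 tested genes with a mean of at least 1 FPKM, as the smallest root mean square difference of log2 values over 14 mice after centring. For Krt18 the nearest was Cldn4, a claudin of collecting duct and thin limb (0.20, where Krt18 itself had an SD of 1.04), followed by Nbl1 (0.28) and Tubb2b (0.28). For Krt7 the nearest was Cldn7, another claudin (0.13, with an SD of 0.66 for Krt7), followed by Tmsb4x (0.15) and Ddah2 (0.16). For Krt20 they were Cdkn1a, the cell cycle inhibitor p21 (0.37, with an SD of 2.23 for Krt20), Eda2r (0.37) and Grem1 (0.46). Cdkn1a was at 3.03 to 6.61 FPKM in controls and 66.6 to 131 FPKM in diabetic mice.

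For Krt19 the nearest were Igfbp2 (0.45, with an SD of 2.12 for Krt19), Serpina3n (0.65) and Serpina10 (0.77). Igfbp2 shared the pattern within the Cfb-/- controls, at 4.76, 0.304 and 3.02 FPKM in mice 1 to 3. For Krt8 they were Ifitm2 (0.12, with an SD of 0.43 for Krt8), Tpst2 (0.12) and Rhog (0.13), and for Vim Cacnb3 (0.14, with an SD of 0.76 for Vim), Tmem98 (0.15) and Rgs19 (0.15). For Krt23 they were Tbx3 (0.34, with an SD of 0.64 for Krt23), Fgfr2 (0.37) and Phactr1 (0.37).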

How the data were processed

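Stranded mRNA libraries of 14 kidneys were sequenced from both ends. Per mouse, the authors deposited 1 FPKM value for each gene, per the labels made on GRCm38.p6 with Trimmomatic, HISAT2, Cufflinks, HTSeq and DESeq, whose versions are not given in the sources used here. No file names the unit, and FPKM was inferred from values that are not whole and sum to 330246 to 488196 per mouse. Read numbers are not given. Depth relative to the first Cfb-/- diabetic mouse, estimated from the steps between low values, was 0.838 to 1 and is approximate. Treatment of reads shared by similar keratin genes is not stated. Groups were taken from the sample names, since the labels describe controls with the treatment text of diabetic mice and the deletion as a knockdown. No 2 mice had the same values over all genes.

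Because FPKM values are not counts, limma 3.58.1 (R 4.3.3) was fitted with a mean-variance trend to log2(FPKM + 0.1) of all 14 mice with 4 group means, for genes at 0.1 FPKM or more in at least 3 mice. Python 3.11.15 with numpy 2.4.6 and pandas 2.3.3 ran the exact permutation tests, and matplotlib 3.10.9 drew the figures. The limma step was run on simulated data with independent noise and few changed genes. Many genes passed in the real data, so that run does not check the calls made here. From other keratins and each list, up to 4 genes with the largest difference in WT mice (adjusted p under 0.05, mean of at least 1 FPKM) could be named. The genes and lists were chosen with earlier results of these data known. Alternatives were pseudocounts of 0.01 and 1, no filter and a filter of 1 FPKM, median-ratio scaling, quantile normalization, the compared groups alone, a replicate block, and leaving out each mouse. Leaving out the 5 mice with a urothelial sum above 25 FPKM was chosen after seeing the data.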

Additional observations from a re-analysis of the deposited data

Results flagged for a closer look

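Krt19 in WT diabetic mouse 1 (5.84 FPKM, against 14.1 to 15.1 in the other 3) lay far from the rest of its group: its gap to the nearest mouse was 0.891 of the range of the group, above Dixon's 95% critical value for 4 mice. This was 1 of 18 groups looked at in this way (the 7 genes, the Krt8 to Krt18 ratio and the Krt8 plus Krt18 share in the 2 groups of 4), and chance sets off about 1 in 20. The same mouse had the lowest urothelial sum of its group, 11.2 FPKM, and the part of urothelium in its Krt19 level was not tested.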

How the results depend on the processing

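For diabetes, 46.1% of all genes passed in either direction in WT mice, and 32.0% to 50.3% did under each alternative but 1. In Cfb-/- mice these shares were 33.8% and 24.9% to 34.0%. Of the 7 genes, 6 passed as higher in WT mice. Under the same alternatives 5 or 6 did (5 to 6 when 1 mouse was left out), and 6 did in Cfb-/- mice. Leaving out the 5 mice with high urothelial markers gave 2 and 3. For the deletion in control mice the count went from 0 to 1, Krt19, without Cfb-/- control mouse 2 or WT control mouse 1 (0 to 1 over the mice left out), while all genes that passed went from 1 to 11 and 1711. The replicate block gave 5 in WT mice, losing Krt8 (adjusted p = 0.076), and 6 in Cfb-/- mice, and changed no other call. The replicate numbers did not pair the mice: over 19 pairs of mice with the same number, deviations from the group means correlated at -0.388 to 0.243, and 3 pairs were above 0.1.

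The log2 ratio of Krt8 to Krt18 kept its direction and call, at -1.31 to -1.15 with 1 mouse left out. So did the share of Krt8 and Krt18, at -7.19 to -4.94 percentage points. Without the 5 mice with high urothelial markers, Cfb-/- control mouse 2 was alone in its group. Its share was 43.5%, within the 41.4% to 45.5% of Cfb-/- diabetic mice. WT diabetic mouse 1, also alone, was at 43.1%, against 49.99% to 54.8% in WT controls. Of 597 recomputed differences of single genes, 556 kept their direction and call, 16 lost the call, 3 gained it and 22 changed sign. No difference that changed sign had passed the test. For the deletion in control mice, Krt7 was at 0.0739 under quantile normalization, 0.192 without the 5 mice, and -0.223 to 0.0721 with 1 mouse left out, and Vim at -0.298 to 0.034. For the deletion in diabetic mice, Krt8 was at -0.0271 under median-ratio scaling, and with 1 mouse left out the ranges were -0.0849 to 0.308 (Krt7), -0.142 to 0.169 (Krt8), -0.509 to 0.0238 (Krt18) and -0.0387 to 0.302 (Vim). Without the 5 mice Krt18, Krt19 and Krt23 were at 0.21, 0.41 and 0.15 there. With 1 mouse left out, Krt7 was at -0.0427 to 0.361 in the interaction and Krt23 at -0.544 to 0.0748 for diabetes in Cfb-/- mice. The cause of these changes was not tested. With 3 or 4 mice in a group and read numbers not given, levels under 0.1 FPKM, such as Krt20 in controls, cannot be read finely.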

Other observations

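Within the Cfb-/- diabetic group the mice kept similar places across the genes. Mouse 1 was the highest of the 4 for 6 of 7 genes, with mouse 2 the highest for Krt20, and mouse 3 was the lowest for 5 of 7. Mouse 1 also had the highest summed injured tubule markers of its group (3157 FPKM, against 1658 to 2351) and the lowest proximal tubule markers (8286 FPKM, against 12897 to 14741), and mouse 3 the lowest injured tubule and the highest proximal tubule sum. In WT diabetic mice the places were more mixed: mouse 4 was the highest for 4 of 7 genes and mouse 1 the lowest for 4 of 7.

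The ratio of Vim to the summed FPKM of the 6 keratins was 0.192 to 0.244 in the 6 control mice and 0.186 to 0.305 in the 8 diabetic mice, so the ranges overlapped.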
